A study of Mus musculus with 12 samples.

Results

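The genes described here encode the machinery of oxidative phosphorylation in mouse embryonic stem cells, followed through 18 h of exposure to the histone deacetylase inhibitor panobinostat. They were chosen by symbol alone. A gene belongs if its annotated symbol starts with Nduf (complex I), Uqcr (complex III), Atp5 (complex V) or Cox followed by a number from 4 to 8 (complex IV), or if it is Cycs (cytochrome c), Cyc1 or Atpif1. Of 19057 genes on the array 86 matched, and 80 of them were among the 11445 genes bright enough to be tested. The other 6, Cox4i2, Cox7b2, Cox8b, Ndufaf6, Ndufb11 and Ndufs1, were not above background on at least 3 of the 12 arrays, so no change was tested for them. Ndufa4 was counted with complex IV, of which its protein is now known to be a subunit. Ndufs5-ps matches by its letters but is a transcribed pseudogene, a near copy of the complex I gene Ndufs5, and its signal cannot be assigned to one of the pair. Complex II and the subunits that the mitochondrial genome encodes fall outside the rule, and Ndufs5, Ndufb1, Uqcrb, Cox7c, Cox8a, Ndufa4l2 and Atp5g1 were not analysed here.

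Total RNA of wild-type E14 cells, a male 129/Ola embryonic stem cell line grown on gelatin without feeder cells in medium with serum and LIF, was hybridized to single-colour Illumina bead arrays. The 4 groups, with 3 arrays each, were untreated cells (0 h) and cells given 50 nM panobinostat (LBH589) for 2 h, 6 h or 18 h. The labels name no vehicle and no untreated cells at the later times, so drug, handling and time in culture cannot be told apart. Nor do the labels tell if replicate arrays stem from cultures grown apart, so all p-values here speak only to variation among these arrays, and that may be technical.

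Oxidative phosphorylation couples the transfer of electrons from nutrients to oxygen with the making of ATP. Complexes I, III and IV, which sit in the inner mitochondrial membrane, pass electrons along and pump protons out of the matrix, cytochrome c carries electrons from complex III to complex IV, and complex V (ATP synthase) lets the protons back in to make ATP. Most subunits are encoded in the nucleus and must be made together with those of mitochondrial DNA. Several subunits of complex IV come in isoforms, one for most tissues and others for heart and skeletal muscle, lung or testis. Pluripotent cells carry the full chain but are known for a strong use of glycolysis.

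On each array 16813 to 18111 of the 45281 probes were detected. Values below are normalized log2 signals of the brightest probe of a gene, or log2 changes with their standard error (SE), and p-values are limma's, adjusted over all 11445 genes with a threshold of 0.05. A probe's level cannot be set against another probe's, so genes are compared only by their changes. The median SE of a change at 18 h was 0.147 for these genes and 0.202 over all genes, a precision limited by the number of arrays. A change of a given size therefore passes more readily in these genes than in a typical gene. How much this adds to the shares set against all genes below was not tested. All 7 markers of embryonic stem cells fixed for the check were detected on every array, while their summed signal was 43296 to 52178 units at 0 h and 24723 to 28408 at 18 h. Dppa5a, with the highest signal in that sum, changed by -0.26 at 18 h (adjusted p = 0.183). The other markers all passed as lower, from -0.99 for Sox2 to -2.53 for Esrrb. Of 8 fibroblast markers Col3a1, Dcn and Lum were detected on no array, and the list's summed signal was 256 to 410 units at 0 h and 705 to 1081 at 18 h. Thy1 (2.22, adjusted p = 0.000143) and Pdgfra (1.84, adjusted p = 3e-06) passed as higher at 18 h. Pdgfra was detected on no array at 0 h, and the other tested fibroblast markers did not pass. The list for blood and endothelium summed to 494 to 525 and 385 to 487 units, with Ptprc and Hbb-bt detected on no array. Its members went both ways at 18 h. Pecam1 (-2.17, adjusted p = 0.000115) and Tek (-1.27, adjusted p = 0.000966) passed as lower. Hba-a1, detected on no array at 0 h, passed as higher (2.46, adjusted p = 3.1e-05), and the other tested members did not pass. The part of these shifts in the results below was not tested. Fewer cells of a type and less RNA per cell cannot be told apart in such bulk samples.

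At 18 h of exposure 23 of the 80 genes were higher than at 0 h (22 of 79 without the pseudogene). Of the rest 1 was lower and 56 did not pass. The share called was 30% here against 36.6% of all genes tested, and the share higher was 28.7% against 20.9% of all genes, with 15.7% of all genes lower. The median log2 change was 0.23, against 0.05 for all genes, but it was -0.16, against -0.11 for all genes, when arrays were scaled to their 75th percentile in place of quantile normalization, so the direction of the family depended on the scaling. With that scaling 8 genes were higher and 12 lower at 18 h, while 36.1% of all genes passed (4128, of which 2348 were lower), and 9 of the 24 calls were shared. The 8 higher ones, Ndufb9, Ndufaf2, Ndufa3, Uqcrh, Cox8c, Cox6a1, Cox7a2l and Atp5md, passed at 18 h under all 22 alternatives tried.

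At 2 h none of the 80 genes passed with limma (1 did, as lower, without 0 h replicate 1), against 3.48% of all genes (2.41% higher, 1.07% lower), and 4 had an unadjusted p under 0.05. The median change of the 80 was -0.04 (-0.10 with 75th percentile scaling). Nearest to the threshold was Cycs (adjusted p = 0.215). At 6 h Cycs, Ndufaf2, Ndufb9, Uqcrh, Atp5md and Atp5k were higher and Ndufaf7 was lower, 7 genes or 8.75% of the 80, against 31.3% of all genes (17.7% higher, 13.6% lower), and the median was 0.00 (-0.19 with 75th percentile scaling). Of these 7 Cycs, Ndufaf2 and Ndufb9 passed under all 22 alternatives. With the replicate number as a block 13 passed at 6 h, 9 higher and 4 lower. From 2 h to 6 h only Ndufaf2 passed, against 13.1% of all genes, and from 6 h to 18 h 7 genes passed, all higher, against 11.1% of all genes. The F test over the 4 times called 23 of the 80, against 43.9% of all genes.

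**Figure D1:**
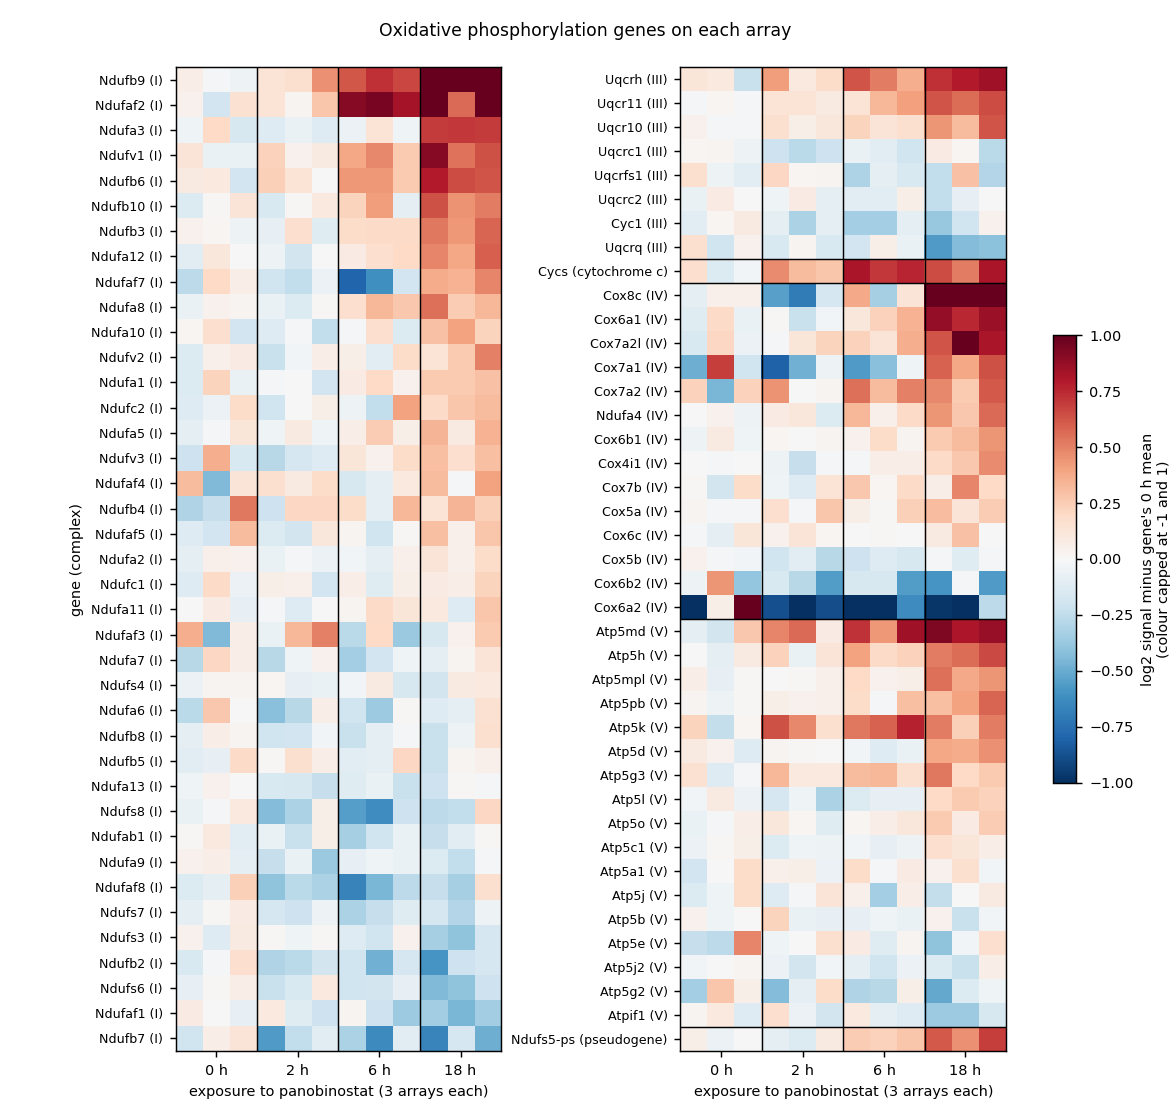
Normalized log2 signal of the 80 tested genes on each of the 12 arrays, minus the gene's mean at 0 h, with complex I on the left and complex III, cytochrome c, complex IV, complex V and the pseudogene on the right. Within each complex genes are ordered by their change at 18 h, and the 3 arrays of 18 h carry most of the strong red cells with this quantile normalization, led by Ndufb9 and Cox8c.

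**Figure D2:**
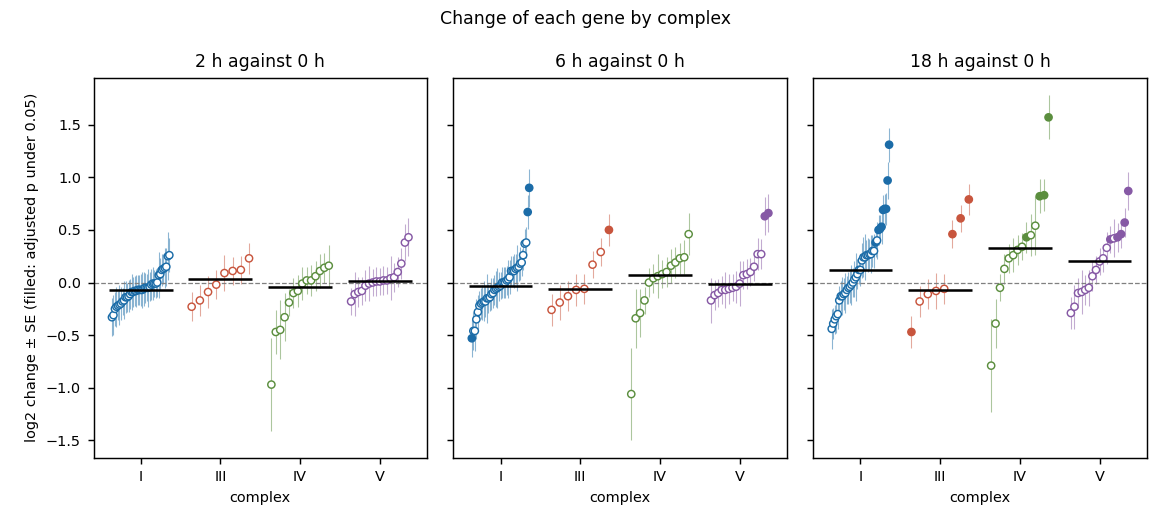
Log2 change of each gene against 0 h with its SE, by complex, at 2 h, 6 h and 18 h, quantile normalized. Filled points have an adjusted p under 0.05 and black lines are medians, which at 18 h are 0.12, -0.07, 0.32 and 0.20 for complexes I, III, IV and V and are all below 0 with 75th percentile scaling.

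In the plot by complex more genes passed at 18 h than at 6 h, and in both plots each complex held genes above and below 0. Among the 80 genes, all 3 arrays at 18 h lay above all 3 at 0 h for 37 (46.2%) and below them for 6 (7.5%) with quantile normalization. Of all genes tested 24.9% lay above and 19.5% below in this way, and 36.6% were called. By role, with quantile normalization, 7 of 27 accessory subunits of complex I were higher, 1 of its 5 core subunits and 1 of its 7 assembly factors, against 20.9% of all genes. Of the other Fo or stalk subunits of complex V 4 of 9 were higher, and 1 of 5 subunits of its catalytic F1 part. With 75th percentile scaling only Ndufb9, Ndufa3, Ndufaf2 and Atp5md of these roles were higher. Lower with that scaling were the accessory subunits Ndufa13, Ndufab1, Ndufb8 and Ndufs6, the core subunit Ndufs7 and the assembly factor Ndufaf1. In complex V the Fo subunit Atp5j2 and the F1 subunit Atp5b were lower with it.

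Promoters are shown for a gene of each kind of motif, from those that were called higher at 18 h. Regulators known to drive these genes are NRF1, the ETS family factor GABP and YY1, so their motifs were searched on both strands in the 250 bases before and 50 after each start in RefSeq (GRCm38.p6). The letters were GCGCANGCG for NRF1, CCGGAAG for the ETS family and AAGATGGC for YY1. Capitals below mark each match, on either strand, and 2 matches of NRF1 overlap in Cox6a1.
Cox6a1 (chr5:115348909-115349208, minus strand): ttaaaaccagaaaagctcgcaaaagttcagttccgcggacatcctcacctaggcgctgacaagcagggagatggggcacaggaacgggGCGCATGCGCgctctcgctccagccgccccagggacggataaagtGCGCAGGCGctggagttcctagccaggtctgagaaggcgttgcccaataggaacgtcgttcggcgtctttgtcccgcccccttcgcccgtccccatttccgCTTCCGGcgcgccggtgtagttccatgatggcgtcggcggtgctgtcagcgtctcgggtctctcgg
Cycs (chr6:50566520-50566819, minus strand): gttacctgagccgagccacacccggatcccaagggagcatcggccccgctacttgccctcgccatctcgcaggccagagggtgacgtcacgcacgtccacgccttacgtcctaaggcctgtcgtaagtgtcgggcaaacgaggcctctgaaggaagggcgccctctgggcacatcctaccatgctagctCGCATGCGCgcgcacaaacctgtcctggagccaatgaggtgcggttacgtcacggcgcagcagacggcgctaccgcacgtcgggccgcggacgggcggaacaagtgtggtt
Uqcrh (chr4:116075021-116075320, minus strand): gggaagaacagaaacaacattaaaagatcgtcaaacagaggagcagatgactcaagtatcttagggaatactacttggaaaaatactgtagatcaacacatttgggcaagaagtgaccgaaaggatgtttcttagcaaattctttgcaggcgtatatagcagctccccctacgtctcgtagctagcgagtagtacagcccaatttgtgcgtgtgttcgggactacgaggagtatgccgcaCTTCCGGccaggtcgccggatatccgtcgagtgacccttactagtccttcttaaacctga
Ndufa3 (chr7:3617123-3617422, plus strand): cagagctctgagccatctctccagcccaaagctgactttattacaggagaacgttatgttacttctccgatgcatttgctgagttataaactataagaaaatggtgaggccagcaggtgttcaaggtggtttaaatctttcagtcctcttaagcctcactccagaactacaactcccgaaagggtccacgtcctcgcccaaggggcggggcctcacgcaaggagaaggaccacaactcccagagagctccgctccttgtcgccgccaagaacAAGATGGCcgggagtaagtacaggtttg
The window of Cox6a1 holds NRF1 and ETS motifs, that of Cycs an NRF1 motif, that of Uqcrh an ETS motif just before the start and that of Ndufa3 a YY1 motif just after it. Of 71 genes of the family with a promoter in the table, 29.6% held the NRF1 motif, 22.5% the ETS motif and 15.5% the YY1 motif, against 7.03%, 9.93% and 3.19% of 27025 genes in all. At least one of them was in 56.3% of the family and in 17.8% of all genes. It was also in 57.9% of the 19 genes called higher at 18 h and in 59.2% of the 49 that were tested and did not pass. The 27025 genes include ones that were not tested on these arrays, and shares among tested genes alone were not computed. A match describes these letters only.

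Of the genes for cytochromes c and c1, Cycs rose and Cyc1 did not pass. Cycs, the soluble carrier that also triggers apoptosis once released from mitochondria, read 11.21, 10.89 and 11.01 on the 0 h arrays, 11.51, 11.35 and 11.32 at 2 h, 11.86, 11.74 and 11.79 at 6 h and 11.69, 11.54 and 11.86 at 18 h. All treated arrays lay above all untreated ones. It rose by 0.76 at 6 h (SE 0.15, adjusted p = 0.0018, n = 3 arrays a group, limma), a fold of 1.7, and by 0.66 at 18 h (SE 0.15, adjusted p = 0.00344), with 75th percentile scaling giving 0.56 (adjusted p = 0.042) and 0.32 (adjusted p = 0.22). A second probe of Cycs changed by 0.85 and 1.01 and another, dim one by 0.45 and 0.27. Cyc1, the heme-bearing subunit that hands electrons to cytochrome c, changed by -0.26 at 6 h (SE 0.15, adjusted p = 0.225) and -0.18 at 18 h (SE 0.15, adjusted p = 0.395), with its 18 h arrays overlapping those of 0 h. With 75th percentile scaling the change at 18 h was -0.45 (adjusted p = 0.0838).

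Complex I takes electrons from NADH, and 9 of its 39 tested genes were higher at 18 h and none lower, 23.1% against 20.9% of all genes higher. With 75th percentile scaling 3 were higher and 6 lower. Ndufb9, an accessory subunit of the membrane arm, moved most. It read 9.26, 9.16 and 9.13 at 0 h, 9.33, 9.35 and 9.64 at 2 h, 9.80, 9.91 and 9.86 at 6 h and 10.72, 10.26 and 10.48 at 18 h, so each time stood above the one before with no overlap of arrays. It rose by 0.67 at 6 h (SE 0.16, adjusted p = 0.00541), and by 1.31 at 18 h, a fold of 2.47 (SE 0.16, adjusted p = 5.62e-05). Between 6 h and 18 h it rose by 0.63 (SE 0.16, adjusted p = 0.0219). Its changes at 2 h (0.26, adjusted p = 0.438) and from 2 h to 6 h (0.42, adjusted p = 0.0947) did not pass.

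Ndufaf2, an assembly factor that joins late intermediates of complex I and is not part of the finished enzyme, rose by 6 h and again passed at 18 h. Its arrays read 10.64, 10.41 and 10.74 at 0 h, 10.74, 10.62 and 10.87 at 2 h, 11.50, 11.55 and 11.42 at 6 h and 11.76, 11.16 and 11.78 at 18 h. The 0 h and 2 h arrays overlapped and all 6 h and 18 h arrays lay above both. The change was 0.90 at 6 h (SE 0.18, adjusted p = 0.00229) and 0.97 at 18 h (SE 0.18, adjusted p = 0.00105), and 0.75 from 2 h to 6 h (SE 0.18, adjusted p = 0.0169).

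Ndufa3, a small membrane subunit, was flat until 6 h and higher at 18 h. It read 10.41, 10.65 and 10.29 at 0 h, 10.40, 10.59 and 10.41 at 6 h and 11.15, 11.16 and 11.15 at 18 h. The rise at 18 h was 0.70 (SE 0.14, adjusted p = 0.00178), with 0.69 of it after 6 h (SE 0.14, adjusted p = 0.00945). Its second probe changed by 0.59 at 18 h, and with 75th percentile scaling the rise was 0.45 (adjusted p = 0.0409).

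Ndufv1, the core subunit that binds NADH and the flavin, read 12.17, 11.97 and 11.97 at 0 h and 12.95, 12.58 and 12.68 at 18 h. These groups did not overlap, and it rose by 0.70 (SE 0.15, adjusted p = 0.00269) but by 0.25 with 75th percentile scaling (adjusted p = 0.291). Its core neighbours did not pass: Ndufv2 changed by 0.30, Ndufs3 by -0.30, Ndufs7 by -0.17 and Ndufs8 by -0.10. With 75th percentile scaling Ndufs7 passed as lower (-0.52), and the changes of Ndufv2 (-0.15), Ndufs3 (-0.47) and Ndufs8 (-0.31) did not pass. The further members higher at 18 h were the accessory subunits Ndufb6 (0.69), Ndufb10 (0.53), Ndufb3 (0.51), Ndufa12 (0.50) and Ndufa8 (0.38), none of which passed with 75th percentile scaling. Ndufb10 did not pass without 0 h replicate 1 (adjusted p = 0.0766) or 18 h replicate 1 (0.0634). Ndufa8 did not pass without any one of 11 of the 12 arrays, with adjusted p from 0.0553 to 0.148. It also did not pass with the mean of kept probes (0.0954) or with array weights (0.0583). With only the groups compared Ndufa12 (0.0607) and Ndufa8 (0.139) did not pass. The pseudogene Ndufs5-ps changed by 0.59 at 18 h (SE 0.13, adjusted p = 0.00423), and by 0.39 with 75th percentile scaling (adjusted p = 0.0919).

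Ndufaf7, an assembly factor of complex I, was lower at 6 h and higher again by 18 h. It read 6.86, 7.32 and 7.19 at 0 h, 6.33, 6.52 and 6.93 at 6 h and 7.50, 7.47 and 7.61 at 18 h, with 1 array at 6 h inside the range of 0 h. The change was -0.53 at 6 h (SE 0.18, adjusted p = 0.0369), and from 6 h to 18 h it rose by 0.94 (SE 0.18, adjusted p = 0.00708). The first of these was -0.29 without background correction (adjusted p = 0.0401). It did not pass with 75th percentile scaling (adjusted p = 0.0631) or with only the groups compared (0.0864). The call was also lost without 0 h replicates 2 (0.107) or 3 (0.0977) or 6 h replicates 1 (0.159) or 2 (0.105). Across the 30 complex I genes that did not pass at 18 h the change ran down to -0.44 for Ndufb7, an accessory subunit read at 6.67 ± 0.18 at 0 h and 6.23 ± 0.25 at 18 h (SD, n = 3).

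**Figure D3:**
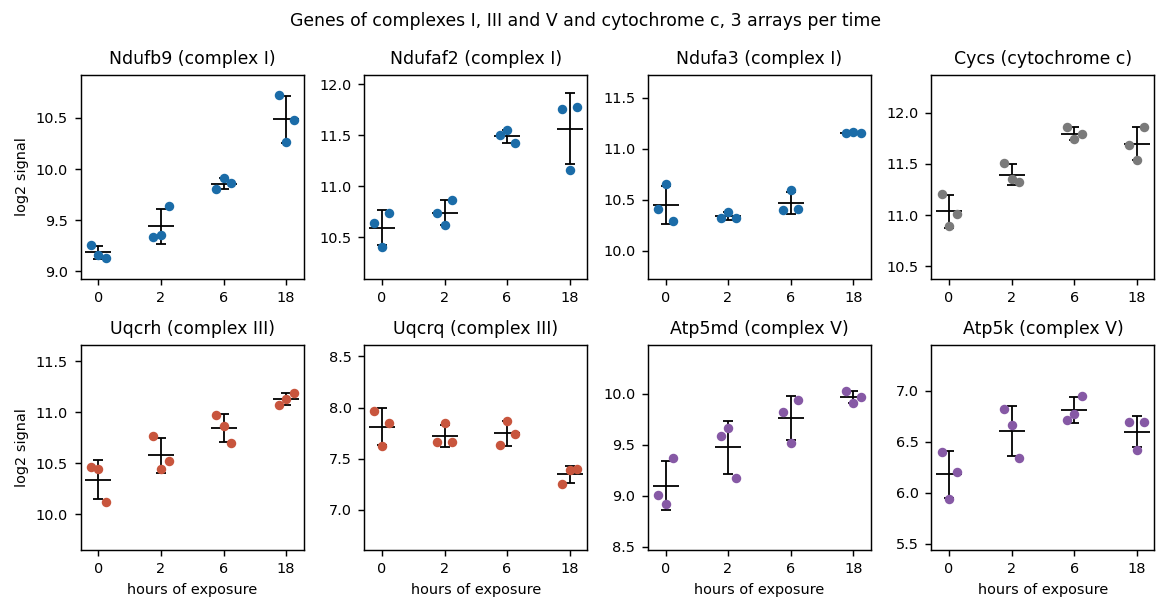
Normalized log2 signal of 8 genes on the 3 arrays of each time (points), with the mean and SD (bars), each panel on its own axis. Ndufb9 reads higher at every time, though its steps to 2 h and from 2 h to 6 h did not pass. Ndufaf2 and Cycs are up from 6 h, Ndufa3 only at 18 h, and Uqcrq is the gene that fell.

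Complex III passes electrons from ubiquinol to cytochrome c, and of its 8 tested genes 3 were higher and 1 lower at 18 h (1 and 2 with 75th percentile scaling), where 20.9% of all genes were higher and 15.7% lower. Uqcrh, the hinge protein that sits beside cytochrome c1, read 10.46, 10.44 and 10.12 at 0 h, 10.97, 10.86 and 10.70 at 6 h and 11.07, 11.13 and 11.19 at 18 h. Each of these times lay above the one before. It rose by 0.50 at 6 h (SE 0.15, adjusted p = 0.0247) and 0.79 at 18 h (SE 0.15, adjusted p = 0.00152). The call at 6 h was lost without 0 h replicate 3 (adjusted p = 0.104), 6 h replicate 1 (0.0966) or 6 h replicate 2 (0.0661), with only the groups compared (0.0526) and with 75th percentile scaling (0.149).

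The small subunits Uqcr11 and Uqcr10 passed as higher at 18 h with quantile normalization and not with 75th percentile scaling. Uqcr11 read 12.32, 12.34 and 12.32 at 0 h and 12.96, 12.89 and 12.98 at 18 h, and rose by 0.61 (SE 0.13, adjusted p = 0.00279), or by 0.15 with 75th percentile scaling (adjusted p = 0.5). Uqcr10 read 13.23, 13.17 and 13.18 at 0 h and 13.63, 13.51 and 13.82 at 18 h, a change of 0.46 (SE 0.13, adjusted p = 0.0157) that became -0.10 with that scaling and did not pass without 18 h replicate 3 (0.0575).

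Uqcrq, another small subunit, was the only gene of the 80 that passed as lower at 18 h with quantile normalization. It read 7.97, 7.62 and 7.85 at 0 h, 7.63, 7.87 and 7.74 at 6 h and 7.25, 7.39 and 7.40 at 18 h. The change was -0.47 with quantile normalization (SE 0.15, adjusted p = 0.0237) and -0.47 with 75th percentile scaling (adjusted p = 0.0416). It was -0.31 without background correction (adjusted p = 0.0136). It did not pass without 0 h replicates 1 (0.0923) or 3 (0.0673) or 18 h replicate 1 (0.0714), or with only the groups compared (0.0819). The large core proteins Uqcrc1 and Uqcrc2 changed by -0.06 and -0.11, and Uqcrfs1, the Rieske iron-sulfur protein, by -0.08 from a level near background. With 75th percentile scaling Uqcrc2 passed as lower (-0.55), and Uqcrc1 (-0.31) and Uqcrfs1 (-0.41) did not pass.

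Complex IV reduces oxygen to water, and 4 of its 14 tested genes were higher at 18 h and none lower, 28.6% against 20.9% of all genes higher, and 3 were higher and 1 lower with 75th percentile scaling. Cox8c, an isoform of subunit 8 known from testis, had the largest change of the 80 genes. It read 6.45, 6.60 and 6.59 at 0 h, 6.01, 5.85 and 6.38 at 2 h, 6.92, 6.22 and 6.67 at 6 h and 8.17, 7.84 and 8.36 at 18 h, and was detected on all 12 arrays. Up to 6 h the arrays overlapped those of 0 h or lay below them. It rose by 1.57 at 18 h, a fold of 2.98 (SE 0.21, adjusted p = 0.000115), and by 1.52 after 6 h (SE 0.21, adjusted p = 0.00121). The rise at 18 h was 0.99 without background correction (adjusted p = 6.99e-05) and with the authors' normalized values. Over the alternatives its adjusted p at 18 h ran from 3.59e-05 to 0.000894.

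Cox6a1, the form of subunit 6a found in most tissues, read 10.85, 11.17 and 10.90 at 0 h, 11.08, 11.20 and 11.33 at 6 h and 11.86, 11.73 and 11.83 at 18 h. It rose by 0.83 at 18 h (SE 0.15, adjusted p = 0.000769), and by 0.60 between 6 h and 18 h (SE 0.15, adjusted p = 0.0213). Its second probe rose by 0.77 at 18 h, and 75th percentile scaling gave 0.47 for the gene (adjusted p = 0.043). Its muscle form Cox6a2 was detected on 2 of 3 arrays at 0 h and read 4.95, 6.20 and 7.25 there, a spread wider than any difference between times. At 18 h it read 5.17, 4.98 and 5.87, a change of -0.79 (SE 0.44, adjusted p = 0.175). Without 0 h replicate 1 it passed as lower (-1.39, adjusted p = 0.0107), and without 0 h replicate 3 it was -0.24.

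Cox7a2l, which joins complexes III and IV into supercomplexes, read 9.30, 9.66 and 9.39 at 0 h, 9.68, 9.58 and 9.81 at 6 h and 10.08, 10.46 and 10.27 at 18 h. It rose by 0.82 at 18 h (SE 0.16, adjusted p = 0.00142), and by 0.58 after 6 h (SE 0.16, adjusted p = 0.0331). The muscle isoform Cox7a1 read 9.01, 10.19 and 9.30 at 0 h and 10.09, 9.89 and 10.14 at 18 h and changed by 0.54 (SE 0.28, adjusted p = 0.145). The ubiquitous Cox7a2 changed by 0.45 (SE 0.20, adjusted p = 0.103). Cox7a1 passed without 0 h replicate 2 (0.88, adjusted p = 0.00986) and with array weights (0.75, 0.0426), and Cox7a2 passed with the replicate block (0.0375). The 18 h arrays of Cox7a1 overlapped those of 0 h, and those of Cox7a2 lay just above them.

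The other isoform genes did not pass, apart from the alternatives named here. Cox6b1, the common form of subunit 6b, changed by 0.34 at 18 h (SE 0.13, adjusted p = 0.0586) and the testis form Cox6b2 by -0.39 (SE 0.23, adjusted p = 0.204). Cox4i1, a subunit through which the enzyme responds to ATP, changed by 0.31 (SE 0.14, adjusted p = 0.0921) and Cox7b by 0.26 (SE 0.16, adjusted p = 0.24). With 75th percentile scaling Cox6b1 changed by -0.12 and Cox4i1 by -0.28. Cox6b1 passed as higher in 6 of 22 alternatives: without background correction and with the authors' values (both 0.00661), without a filter (0.0195), with detection on all 12 arrays (0.0389), with array weights (0.0408) and with the replicate block (0.0481). Cox4i1 passed in 3 of them, without background correction and with the authors' values (both 0.0173) and without a filter (0.0449). Ndufa4 read 12.60, 12.64 and 12.55 at 0 h and 13.04, 12.87 and 13.16 at 18 h, a change of 0.43 (SE 0.15, adjusted p = 0.0346). It became -0.03 with 75th percentile scaling, and did not pass with only the groups compared (0.0965). The call was also lost without 0 h replicates 1 (0.0744) or 3 (0.094) or 18 h replicates 1 (0.0721) or 3 (0.103).

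**Figure D4:**
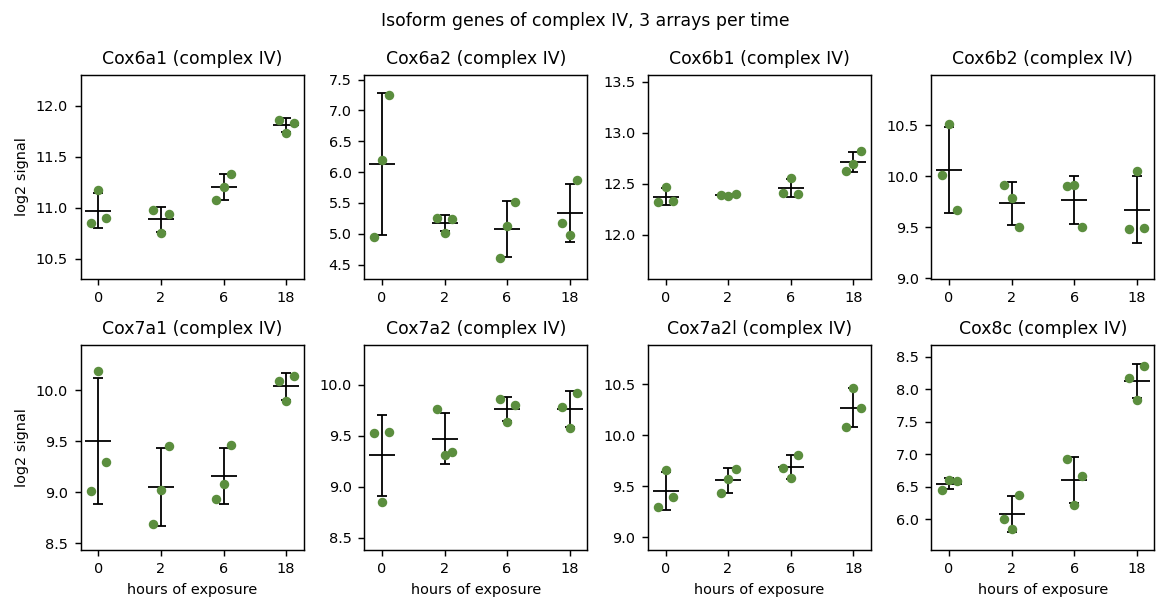
Normalized log2 signal of isoform genes of complex IV on the 3 arrays of each time (points), with the mean and SD (bars), each panel on its own axis. Cox6a1, Cox7a2l and Cox8c stand higher at 18 h, while Cox6a2 and Cox7a1 spread widely at 0 h.

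In complex V 5 of 17 tested genes were higher at 18 h and none lower, 29.4% against 20.9% of all genes higher, and 1 was higher and 3 lower with 75th percentile scaling. Atp5md, a small membrane subunit also known as DAPIT that is linked to dimers of ATP synthase, read 9.01, 8.92 and 9.37 at 0 h, 9.59, 9.66 and 9.18 at 2 h, 9.82, 9.52 and 9.94 at 6 h and 10.03, 9.91 and 9.97 at 18 h. From 6 h all its arrays lay above those of 0 h. The rise was 0.66 at 6 h (SE 0.18, adjusted p = 0.0132, and 0.0535 without 6 h replicate 3) and 0.87 at 18 h (SE 0.18, adjusted p = 0.00229).

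Atp5k, subunit e at the dimer interface, passed at 6 h and not at 18 h. It read 6.40, 5.94 and 6.20 at 0 h, 6.71, 6.77 and 6.95 at 6 h and 6.69, 6.42 and 6.69 at 18 h. The rise was 0.63 at 6 h (SE 0.18, adjusted p = 0.015) and the change 0.42 at 18 h (SE 0.18, adjusted p = 0.0774), with 0.31 at 6 h without background correction (adjusted p = 0.0212). A second, dim probe changed by -0.11 at 6 h, and the call was lost with the mean of both probes (adjusted p = 0.344) and without 0 h replicate 2 (0.0503) or 6 h replicate 3 (0.0564).

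Subunits of the peripheral stalk, which holds the catalytic head still, included Atp5h (subunit d), Atp5pb (subunit b), Atp5o and Atp5j. Of these, Atp5o (0.20, adjusted p = 0.276) and Atp5j (-0.05, adjusted p = 0.848) did not pass at 18 h. With 75th percentile scaling they changed by -0.29 and -0.40 and did not pass either. Atp5h read 11.17, 11.08 and 11.25 at 0 h and 11.67, 11.73 and 11.82 at 18 h, without overlap, and rose by 0.57 (SE 0.14, adjusted p = 0.00654), or by 0.22 with 75th percentile scaling (adjusted p = 0.392). Atp5pb changed by 0.43 (SE 0.14, adjusted p = 0.0296). It did not pass with 75th percentile scaling (0.489), the mean of kept probes (0.0669) or only the groups compared (0.0959). The call was also lost without any one of 0 h replicates 1 to 3 (0.06 to 0.0656), or without 18 h replicates 2 (0.053) or 3 (0.0965). Atp5mpl, a small proteolipid of the membrane part, changed by 0.46 (SE 0.13, adjusted p = 0.0149) and by -0.05 with 75th percentile scaling. With only the groups compared it did not pass (0.0739).

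In the F1 head, which makes the ATP, Atp5d (subunit delta) rose by 0.41 (SE 0.13, adjusted p = 0.0255), with 0.0998 without 0 h replicate 3, 0.0621 without 18 h replicate 3 and 0.385 with 75th percentile scaling. Atp5a1 and Atp5b, for the alpha and the catalytic beta subunit, changed by 0.06 and -0.07. With 75th percentile scaling Atp5b passed as lower (-0.81), and Atp5a1 did not pass (-0.40). Of the genes for subunit c, which forms the rotor ring, Atp5g2 changed by -0.23 (SE 0.21, adjusted p = 0.423) and Atp5g3 by 0.33 (SE 0.15, adjusted p = 0.101, and -0.34 with 75th percentile scaling). Atp5g3 passed as higher without background correction and with the authors' values (both 0.0347). Atpif1, the inhibitor that stops ATP synthase from running backwards, read 13.88, 13.96 and 13.73 at 0 h and 13.50, 13.50 and 13.69 at 18 h. Its 18 h arrays all lay below those of 0 h, with a change of -0.29 (SE 0.15, adjusted p = 0.142). It passed as lower with 75th percentile scaling (-0.90, adjusted p = 0.000742) and with the mean of kept probes (-0.63, adjusted p = 0.00375). That mean includes a second, dim probe that changed by -0.98 at 18 h.

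**Figure D5:**
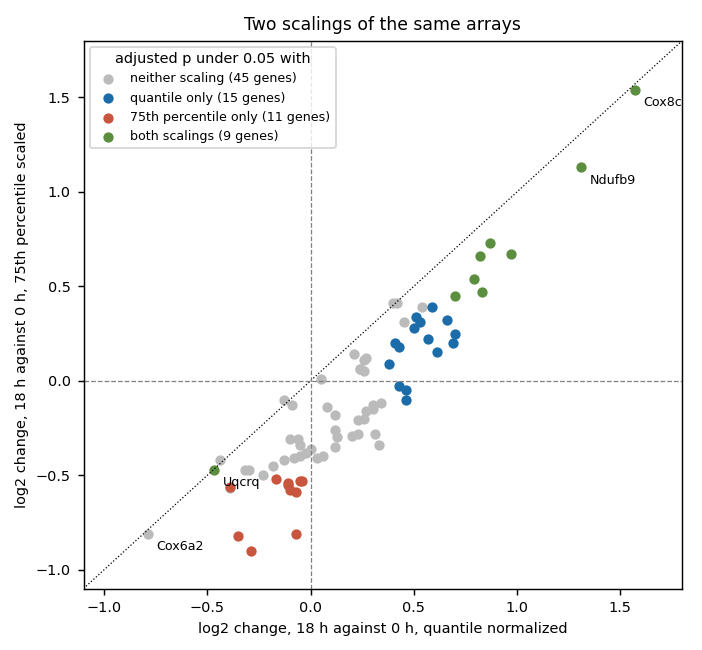
Log2 change at 18 h against 0 h of each of the 80 genes with quantile normalization (horizontal) and with each array scaled to its 75th percentile (vertical), coloured by the scaling with which the adjusted p was under 0.05. Of the 80 points 76 lie below the dotted line of equal values, 9 genes passed with both, 15 with quantile normalization only and 11 with 75th percentile scaling only.

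In the plot of both scalings nearly all genes read lower with 75th percentile scaling. These genes are bright: their median rank by mean signal was at percentile 92.8 of all tested genes. After background correction the gap between the 99th and the 75th percentile of an array was 6.04 to 6.25 on the log2 scale at 0 h and 5.64 to 5.86 at 18 h. Quantile normalization sets this gap equal between arrays and 75th percentile scaling leaves it as it is. Whether the gap came from the cells or the arrays was not tested.

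Other genes of the pathway were taken from lists of complex II, assembly factors and carriers, with 40 of 51 entries tested. None passed at 2 h, 4 were higher and 7 lower at 6 h, and 9 were higher and 8 lower at 18 h (7 and 9 with 75th percentile scaling), with a median of 0.05 at 18 h. The shares called were 27.5% at 6 h, against 31.3% of all genes, and 42.5% at 18 h, against 36.6%. No tested subunit of complex II passed at 18 h. Cox19, a copper-handling assembly factor of complex IV, went from 8.05 ± 0.12 at 0 h to 9.34 ± 0.24 at 18 h (SD, n = 3) and rose by 1.13 at 6 h (SE 0.15, adjusted p = 0.000171) and 1.28 at 18 h (SE 0.15, adjusted p = 5.1e-05). Sdhaf3, an assembly factor of complex II, rose by 1.05 at 18 h (SE 0.17, adjusted p = 0.00053). Slc25a4, the heart and muscle form of the carrier that exchanges ADP for ATP, rose by 1.19 at 18 h (SE 0.25, adjusted p = 0.00237), and by 0.69 without background correction and with the authors' values. Slc25a5, another form of this carrier, named after its values were seen, changed by -0.55 at 18 h (SE 0.14, adjusted p = 0.00665). Tmem186, an assembly factor of complex I, fell from 7.73 ± 0.10 to 6.82 ± 0.22, by 0.91 (SE 0.16, adjusted p = 0.000873), and changed by -0.57 without background correction. Cox19, Sdhaf3, Slc25a4 and Tmem186 passed at 18 h under every alternative tried.

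Regulators of mitochondrial genes included Pprc1, which passed as lower at both 6 h and 18 h. Of 16 regulators tested, none was higher and 5 were lower at 6 h, also with 75th percentile scaling, and 2 were higher and 3 lower at 18 h (0 and 2 with 75th percentile scaling). The share called was 31.2% at both times, against 31.3% and 36.6% of all genes. At 2 h Mterf1a, a factor of mitochondrial transcription, was the one that passed and is named for that reason, chosen after its values were seen. It changed by -0.62 (SE 0.15, adjusted p = 0.0424), a call lost with 75th percentile scaling. Mterf1a was also lower at 6 h (-0.59, adjusted p = 0.0111) and changed by 0.07 at 18 h (adjusted p = 0.747). Polg, likewise named after its values were seen, was lower at 6 h (-0.50, adjusted p = 0.0166) and 18 h (-0.44, adjusted p = 0.0251). Pprc1, a coactivator of NRF1, went from 9.46 ± 0.42 at 0 h to 7.93 ± 0.03 at 6 h and 8.09 ± 0.07 at 18 h (SD, n = 3). It fell by 1.53 at 6 h (SE 0.22, adjusted p = 0.000246). At 18 h it was -1.37 relative to 0 h (SE 0.22, adjusted p = 0.000393).

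Gabpa and Gabpb1, which encode both subunits of the ETS factor GABP and were chosen after their values were seen, were lower at 6 h. Gabpa changed by -0.90 (SE 0.22, adjusted p = 0.00733) and Gabpb1 by -1.04 (SE 0.16, adjusted p = 0.000417). At 18 h their changes were -0.41 (adjusted p = 0.16) and -0.40 (adjusted p = 0.0651). Nrf1 changed by -0.06 at 6 h and -0.53 at 18 h (SE 0.19, adjusted p = 0.0453), and did not pass in 14 of 22 alternatives. Tfam, which packages and transcribes mitochondrial DNA, changed by 0.45 at 18 h (SE 0.16, adjusted p = 0.0433) and did not pass in 12 of 22. Tfb1m, which methylates mitochondrial ribosomal RNA, changed by 0.55 at 18 h (SE 0.16, adjusted p = 0.0145, and 0.0569 without 0 h replicate 1). With 75th percentile scaling its change was 0.41 and did not pass (adjusted p = 0.11). The nuclear receptor gene Esrra changed by -0.39 at 18 h (SE 0.18, adjusted p = 0.117), and Ppargc1a was not above background on enough arrays to be tested.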

How the data were processed

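Total RNA of 12 samples was measured, and groups and replicate numbers came from the labels, with 0 columns left unmatched. Each probe has, per the file headers, a detection p-value and a non-normalized signal for every array in the deposited table used here. The submitters' processing notes name GenomeStudio, without a version, and the deposited signals are linear intensities. Its background setting was not stated in these sources. The authors also deposited normalized intensities, which served as an alternative. Many of these genes have processed pseudogenes, and binding of a probe to such copies was not tested.

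Signals were background corrected with limma (version 3.58.1, in R 4.3.3) by normexp (offset 16, background inferred from the detection p-values), quantile normalized and put on the log2 scale. Probes with a detection p under 0.05 on at least 3 of 12 arrays were kept, and the brightest probe stood for its gene, which was a choice among several for 26 members. Gene names came from the array's annotation, updated through the RefSeq table of GRCm38.p6: 34885 of 45281 probes had 1 gene, 18 several and 10378 none. All arrays entered 1 linear model with a mean for each group, and limma's moderated tests were 2-sided with Benjamini-Hochberg adjustment over 11445 genes. The fit was tested on simulated data of the 18 h comparison over 11445 genes, where it found 5 of 67 genes given a log2 change of 0.5, 38 of 67 given 1 and 66 of 66 given 2, and made 3 false calls. In the data 4184 genes passed at 18 h, far more than were changed in the simulation. The adjustment depends on how many genes change, so these shares found do not describe the real comparison.

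The members and lists were chosen with earlier results of these data known. Genes were named by rule: in each complex up to 4 in each direction by size among those past the threshold at 18 h and up to 2 at 6 h and 2 h, Cycs, Cyc1, Atpif1 and the isoform genes in any case, and from the lists of other pathway genes and regulators the leading ones. Further members are named, after their values were seen, to account for every call or to place a core or stalk subunit. Same-numbered arrays deviated together in 16 of 18 pairs (correlations over 0.1, range 0.07 to 0.49), and in every pair of 0 h with 2 h and 0 h with 6 h. This pairing is read from the data, not the labels. Alternatives were no background correction, 75th percentile scaling, cyclic loess, the authors' table, no or a stricter filter, the mean of probes, array weights, only the groups compared, the replicate block, and leaving out each array in turn.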

Additional observations from a re-analysis of the deposited data

How the results depend on the processing

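Of 1055 values of named genes under the alternatives, 961 kept their direction and side of the threshold, 71 no longer passed, 17 newly passed and 6 reversed. The alternatives are not separate checks. No background correction and the authors' values are nearly the same setting, with 4247 and 4248 of all genes called at 18 h. Leaving out an array of a time that is not compared hardly moves a change. The 6 reversals were all at 18 h with 75th percentile scaling: Uqcr10 at -0.10, Ndufa4 at -0.03, Atp5mpl at -0.05, Cox4i1 at -0.28, Cox6b1 at -0.12 and Atp5g3 at -0.34. With that scaling the medians of the members were -0.10 at 2 h, -0.19 at 6 h and -0.16 at 18 h, and 0 passed from 2 h to 6 h, 3 from 6 h to 18 h and 13 in the F test over the 4 times. Without background correction, and likewise with the authors' normalized values, 11 members passed at 6 h, 5 from 2 h to 6 h and 15 from 6 h to 18 h. Array weights gave 5 from 2 h to 6 h, and the mean of kept probes a median of 0.17 at 18 h. With the replicate block 13 members passed at 6 h, the other counts of members staying within 1.5 times, with 29 at 18 h. Only the groups compared gave 16 at 18 h. The cause of these differences was not tested. Leaving out each array in turn gave 0 to 1 members at 2 h, 5 to 8 at 6 h, 19 to 24 at 18 h, 0 to 1 from 2 h to 6 h, 3 to 8 from 6 h to 18 h and 14 to 22 in the F test. The count at 2 h was 1 without 0 h replicate 1, and the F test gave 14 without 18 h replicate 3. From 6 h to 18 h it was 3 without 6 h replicates 1 or 2 and 4 without 6 h replicate 3 or 18 h replicate 3. From 2 h to 6 h it was 0 without 2 h replicates 1 or 2 or 6 h replicates 1 or 2. Medians ran from -0.07 to -0.02 at 2 h, from -0.01 to 0.04 at 6 h and from 0.18 to 0.26 at 18 h. Signal close to background limits what can be said of Uqcrfs1, Cox6a2 and the members that were not tested.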
